A study of Homo sapiens with 4 samples.

Results

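The genes examined here encode subunits of the mitochondrial respiratory chain and ATP synthase that are carried by the nuclear genome. They were taken by symbol, as every gene listed under NDUFA, NDUFB, NDUFC, NDUFS or NDUFV with a number, SDHA to SDHD, UQCR, COX4 to COX8 or ATP5. The pattern took 93 of 26364 genes. Of these, 81 encode subunits or tissue isoforms of complexes I to V, and 12 are other genes with similar symbols. The 12 are 3 antisense RNAs, 2 readthrough transcripts, 4 retrocopies or pseudogenes (UQCRHL, UQCRBP1, ATP5EP2 and ATP5L2) and 3 related proteins (COX7A2L, ATP5S and ATP5SL).

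Messenger RNA was sequenced in NTERA2, a human embryonal carcinoma line with a pluripotent character. The samples form 2 groups of 2 libraries: BEND3 LacZ with replicates numbered 1 and 3, and BEND3 sh60 with replicates numbered 1 and 2. The BEND3 protein binds chromatin and represses transcription. The labels leave the names unexplained. Here sh60 is read as a hairpin that targets BEND3 messenger RNA, with LacZ as its control. Every library has the same entry for the clone, and no other treatment is given. The labels name the line a lung carcinoma, but all 6 lung epithelium markers examined, among them SFTPC and NKX2-1, lay under 1 CPM in every library. POU5F1, which encodes the pluripotency factor OCT4, lay between 910 and 1016 CPM and was not called between the groups. Of the 10 pluripotency markers examined, 5 were lower in sh60 (NANOG, LIN28B, TDGF1, DNMT3B and SALL4) and 1, SOX2, was higher. CPM is a gene's share of its library's scaled total, in counts for every 1e6. Nothing states that replicates were separate cultures, so p-values measure only the spread between these libraries, which may be technical.

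Oxidative phosphorylation passes electrons from NADH (complex I) and succinate (complex II) through complexes III and IV to oxygen, and ATP synthase (complex V) uses the resulting proton gradient to make ATP. Most subunits are encoded in the nucleus and a few in mitochondrial DNA, so both sets must be made together. Pluripotent cells rely strongly on glycolysis but keep a working respiratory chain. NRF1 and the ETS factor GABP are known for binding the promoters of many of these genes.

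Promoters are shown first because these genes are known for shared regulatory motifs. RefSeq windows on GRCh38.p14, from 250 bases before to 50 after the start, were found for 73 of the 93 genes and for 61 of the 73 subunit genes tested below. The NRF1 motif, searched as GCGCA, any base and GCGC on both strands, was present in 15 of these 61 windows (24.6%), against 7.95% of 15843 protein-coding windows of equal length. The ETS core CCGGAAG was in 19 (31.1%), against 13.8%. The YY1 motif AAGATGGCG was in 8 (13.1%), against 2.66%. The SP1 motif GGGCGG was in 36 (59.0%), against 56.6%, and the TATA sequence TATAAA was in 6 (9.84%), against 10.2%. These shares are descriptions, and a match is not evidence of binding. The protein-coding windows were not matched to these genes for expression or GC content. Only 3 genes, SDHD, UQCR11 and ATP5I, held both an NRF1 and an ETS match. Tested subunit genes with no window in the table used included NDUFB5, NDUFB9, NDUFC2, NDUFS5, SDHC, UQCRB, COX6C, ATP5G3, ATP5B, ATP5D and ATP5J2.

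The sequences below are the 250 bases before the start of the 4 genes called lower in sh60 with an NRF1 or ETS match there, and of SDHD, a complex II gene that was not called. Capitals mark NRF1 matches of 10 bases and ETS matches of 7 bases, and in these 5 windows they do not overlap. The windows are chr3:120596086-120596335 (plus strand) for NDUFB4, chr12:95003698-95003947 (minus strand) for NDUFA12, chr5:218070-218319 (plus strand) for SDHA, chr17:75046970-75047219 (minus strand) for ATP5H and chr11:112086623-112086872 (plus strand) for SDHD. SDHA carries 4 NRF1 matches, which begin 166, 117, 68 and 19 bases before the start. NDUFB4 carries 2 in this stretch and NDUFA12 carries 1. ATP5H has an ETS match 101 bases before the start.
NDUFB4: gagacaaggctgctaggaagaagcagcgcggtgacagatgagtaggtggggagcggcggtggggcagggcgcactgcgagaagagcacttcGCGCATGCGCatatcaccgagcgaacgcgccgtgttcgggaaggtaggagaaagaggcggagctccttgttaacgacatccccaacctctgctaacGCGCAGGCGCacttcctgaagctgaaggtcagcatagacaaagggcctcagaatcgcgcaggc
NDUFA12: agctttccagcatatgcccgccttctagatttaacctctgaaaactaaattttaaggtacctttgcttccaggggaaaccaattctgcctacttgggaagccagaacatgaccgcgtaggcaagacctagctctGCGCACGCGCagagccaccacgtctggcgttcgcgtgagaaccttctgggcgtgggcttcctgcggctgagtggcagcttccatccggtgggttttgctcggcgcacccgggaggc
SDHA: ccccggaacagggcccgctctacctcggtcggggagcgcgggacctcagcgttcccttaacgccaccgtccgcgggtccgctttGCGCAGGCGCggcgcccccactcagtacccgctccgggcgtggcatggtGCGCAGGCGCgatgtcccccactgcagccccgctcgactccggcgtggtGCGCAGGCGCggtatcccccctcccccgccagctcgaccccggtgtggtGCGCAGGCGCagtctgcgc
ATP5H: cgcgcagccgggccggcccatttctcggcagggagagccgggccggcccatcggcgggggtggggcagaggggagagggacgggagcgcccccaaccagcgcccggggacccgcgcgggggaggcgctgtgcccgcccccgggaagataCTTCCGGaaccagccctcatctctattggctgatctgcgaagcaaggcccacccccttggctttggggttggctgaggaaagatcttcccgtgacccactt
SDHD: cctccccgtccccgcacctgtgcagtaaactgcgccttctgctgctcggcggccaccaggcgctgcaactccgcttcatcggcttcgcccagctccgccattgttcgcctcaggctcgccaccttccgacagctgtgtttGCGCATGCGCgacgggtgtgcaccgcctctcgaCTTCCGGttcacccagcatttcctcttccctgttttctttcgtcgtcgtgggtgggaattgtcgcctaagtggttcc

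Among the 10 genes that were lower in sh60, all with a window, 3 held an NRF1 match and 1 an ETS match. Among the 51 windows of tested subunit genes that were not called, 12 held NRF1 and 18 held ETS. With 10 windows in the first set these shares are imprecise, and their difference was not tested.

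The libraries held between 30338285 and 44788461 counts, and 1 count was worth 0.0221 to 0.0333 CPM. The 93 genes took 0.836% and 0.872% of all counts in LacZ replicates 1 and 3, and 0.776% and 0.864% in sh60 replicates 1 and 2. BEND3 itself measured 68.8 and 79.3 CPM in LacZ and 55.7 and 52.0 CPM in sh60 (-0.46 on the log2 scale with SE 0.098, adjusted p = 0.00168 by edgeR). The call was lost without LacZ replicate 3 (-0.36, adjusted p = 0.153, in a range of 3.85e-05 to 0.153 over the alternatives). The fibroblast markers COL1A1, COL1A2 and LUM, 3 of 6 examined, were higher in sh60. The 6 summed to 286 and 193 CPM in LacZ and 731 and 881 CPM in sh60, with none at 0. The sum is mostly COL1A1, at 141 and 84.9 CPM in LacZ and 554 and 684 CPM in sh60. The other 3 markers were not called: PDGFRB measured 93.8 and 80.5 CPM in LacZ and 70.4 and 80.3 CPM in sh60, COL3A1 measured 16.8 and 6.69 CPM in LacZ and 7.25 and 10.4 CPM in sh60, and DCN reached at most 2.50 CPM, with overlapping groups. The pluripotency markers summed to 4896 and 5151 CPM in LacZ and 4739 and 4521 CPM in sh60, with none at 0; DNMT3B went from 879.7 and 957 CPM to 573 and 546 CPM. All 5 blood markers lay under 1 CPM throughout. The part of the fibroblast and pluripotency markers in the results below was not tested.

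Most genes of oxidative phosphorylation differed little between sh60 and LacZ. A low-count filter left 79 of the 93 genes. By edgeR's quasi-likelihood test, with Benjamini-Hochberg adjustment over 16040 genes and a threshold of 0.05, 10 were lower in sh60, 0 were higher and 69 did not pass. Over all genes tested, 28.8% were called, 13% lower and 15.8% higher. The members' share called lower, 12.7%, is near that background. The 10 were NDUFA7, NDUFA10, NDUFA12, NDUFB4, NDUFS7 and NDUFS8 of complex I, SDHA of complex II, and ATP5A1, ATP5G2 and ATP5H of complex V. Without adjustment, 17 members had a p under 0.05 downwards and 2 upwards. DESeq2 called 9 lower and 0 higher, and limma-voom called 12 lower and 0 higher. In bulk RNA, fewer cells of a type and less RNA per cell cannot be told apart.

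The median log2 fold change of the 79 genes was -0.08, against -0.0042 over all genes tested. It was -0.055 over 703 other genes under 1500 bp at 20 CPM or more. Whether the members differ from these short genes was not tested. Single values ran from -0.46 to 0.22 among the 73 tested subunit genes. For 69 of these 73, the 95% confidence interval lay within 1.5-fold in both directions, and for all 73 it lay within 2-fold. The same held for 9076 (within 1.5-fold) and 12616 (within 2-fold) of the 16040 genes tested. In a middle range of LacZ means, from 20 CPM upwards, it held for 6301 and 7370 of 7611 genes. Whether the subunit genes differ in this from other genes at a like level was not tested. Both sh60 libraries lay below both LacZ libraries for 29 of the 79 members and above them for 9, against 32.3% and 32.1% of all genes tested (64.4% together). For the other 41 members the groups overlapped.

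**Figure D1:**
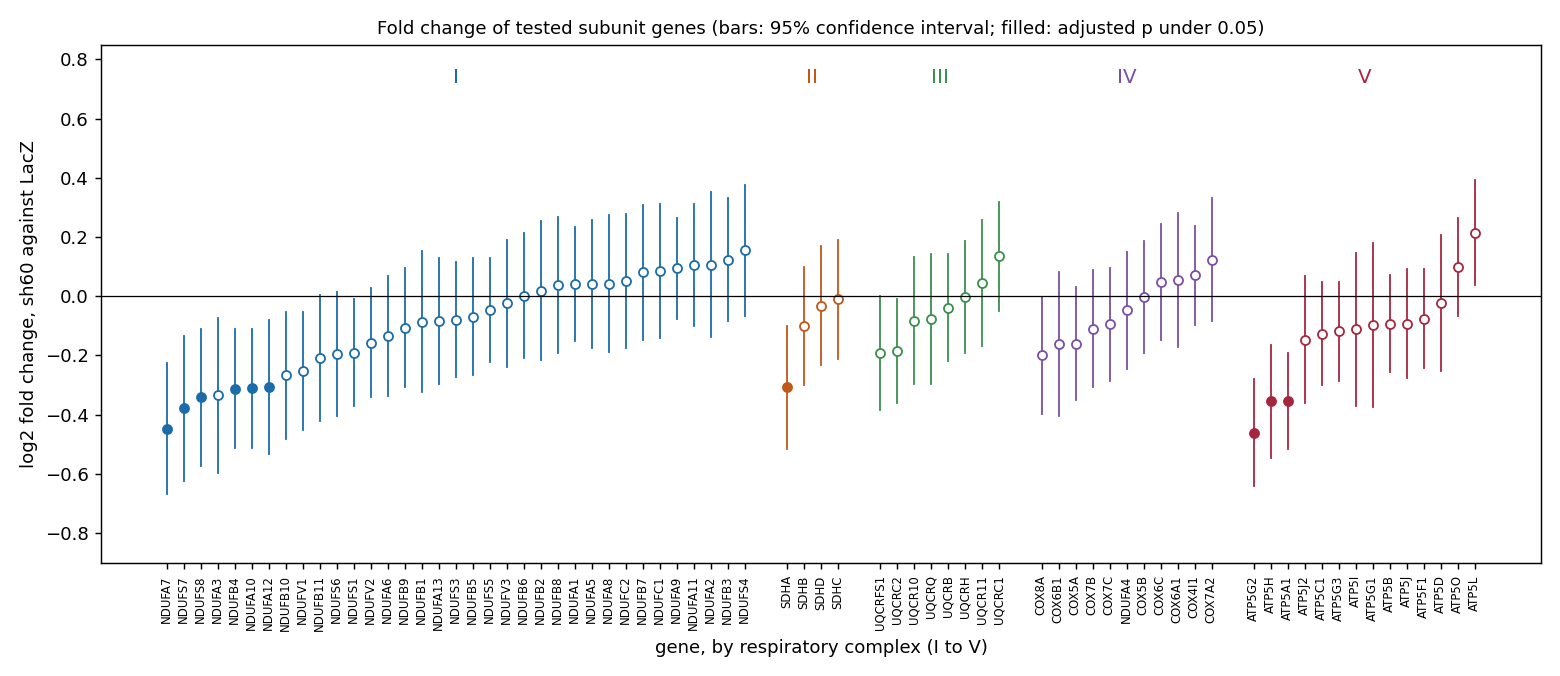
Log2 fold change of sh60 against LacZ (y axis) for tested subunit genes (x axis), ordered within complexes I to V, with 95% confidence intervals as bars; filled points passed the adjusted p threshold of 0.05. The 10 filled points all lie below 0, and the values span -0.46 to 0.22.

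These counts rested on single libraries. The members' share called lower exceeded that of all genes without sh60 replicate 2, and lay under it with any other library left out. Without sh60 replicate 1, 9 members were lower and 11 were higher (ATP5L, COX6A1, COX7A2, COX7A2L, NDUFA11, NDUFA2, NDUFB7, NDUFB8, UQCR11, UQCRC1 and UQCRHL, named after their values were seen). Without sh60 replicate 2, 29 were lower and 0 higher. Without LacZ replicate 1, 2 were lower (ATP5G2 and NDUFA7), and without LacZ replicate 3, 1 was lower (ATP5G2). The share of all genes called lower in these 4 fits was 16.3%, 15.5%, 7.20% and 5.77%, in the same order. Without sh60 replicate 1, 16.9% of all genes were called higher, above the members' 13.8%, so the 11 do not exceed the background. ATP5G2 alone of the 10 passed under all 14 alternatives run.

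**Figure D2:**
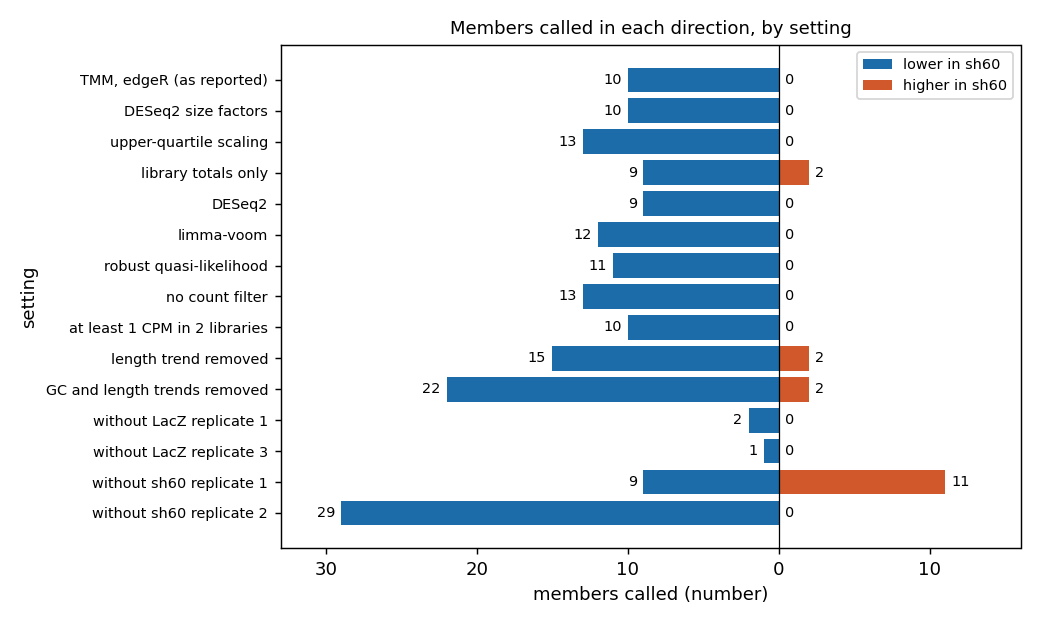
Number of members called lower (blue, to the left) and higher (orange, to the right) in sh60 by edgeR or the tool named, for the reported fit and 14 alternatives (y axis). The count lower runs from 1 without LacZ replicate 3 to 29 without sh60 replicate 2, and 11 members are called higher without sh60 replicate 1.

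The 2 sh60 libraries differed from each other across almost the whole set. Of the 79 members, 71 (89.9%) were higher in sh60 replicate 2 than in sh60 replicate 1, with a median difference of 0.18 on the log2 scale. Over all genes tested the share was 51.0% and the median 0.0047. The median difference between the groups, for comparison, was -0.08. Members are short, with a median exon length of 975 bp against 3201 bp over all genes. Among 703 other genes under 1500 bp at 20 CPM or more, 79.2% were higher in replicate 2, with a median of 0.14. In LacZ, 62 of 79 members (78.5%) were higher in replicate 3 than in replicate 1, by a median of 0.06, against 50.7% of all genes and 67.4% of the other short genes. With the length trend over all genes removed, 15 members were lower and 2 higher, against 17.4% of all genes lower.

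**Figure D3:**
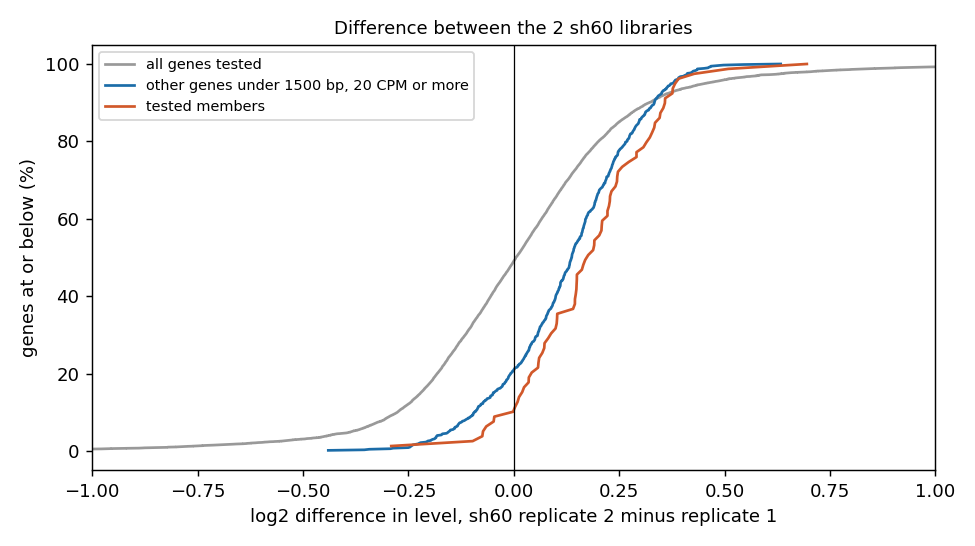
Cumulative share of genes (y axis, percent) at or below a given log2 difference between sh60 replicate 2 and replicate 1 (x axis) for the 79 tested members (orange), 703 other short genes (blue) and all genes tested (grey). The members' curve lies to the right of the others over most of its range, with 89.9% of members above 0 against 51.0% of all genes.

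Complex I is the NADH dehydrogenase and the entry point of the chain. All 36 of its listed genes were tested, and 6 were lower, 0 higher and 30 not called (10 lower and 0 higher at an unadjusted p under 0.05; 5 and 0 by DESeq2, 8 and 0 by limma-voom). The 6 are 16.7% of the genes of this complex, against 13% of all genes tested. The median log2 fold change was -0.08. The N module, which holds the site of NADH oxidation, had 2 of 10 genes lower and a median of -0.17. The Q module, which reduces ubiquinone, had 2 of 5 lower and a median of -0.12. In the membrane arm, which pumps protons, 2 of 21 were lower and the median was 0.0016. Modules were assigned by hand. NDUFA9 (log2 fold change 0.09, not called) was counted in the membrane arm and not in the Q module, and both medians depend on such placements. The shares lower were 20% (N module), 40% (Q module) and 9.52% (membrane arm), against 13% of all genes tested. Each share rests on 2 genes, and differences between modules were not tested.

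NDUFA7, an accessory subunit of the N module (hg19, chromosome 19, 8376184 to 8386280), stood at 48.1 CPM (replicate 1) and 50.8 CPM (replicate 3) in LacZ. It stood at 33.1 CPM (replicate 1) and 39.3 CPM (replicate 2) in sh60, and values below follow the same order. The groups did not overlap, and sh60 replicate 1 was the lowest library. Its mean went from 49.5 ± 1.95 to 36.2 ± 4.34 CPM (SD, n = 2 each), with a log2 fold change of -0.45 (SE 0.105, edgeR adjusted p = 0.00350). Its call was lost without LacZ replicate 3. NDUFA12 (chromosome 12, 95365104 to 95397489), another accessory subunit of that module, measured 46.7 and 54.1 CPM in LacZ and 37.5 and 43.8 CPM in sh60. The spread within each of its groups was larger than the gap between the nearest libraries. The difference was -0.31 on the log2 scale (SE 0.108, adjusted p = 0.0405). It did not pass with DESeq2, with library totals only, or without LacZ replicate 1, LacZ replicate 3 or sh60 replicate 1.

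NDUFS7 and NDUFS8 are the core subunits of the Q module that carry its iron-sulphur clusters. NDUFS7 (chromosome 19, 1383883 to 1395588) measured 35.4 and 37.1 CPM in LacZ and 24.4 and 31.3 CPM in sh60, a log2 fold change of -0.38 (SE 0.116, adjusted p = 0.0202). NDUFS8 (chromosome 11, 67798084 to 67804114) measured 56.8 and 60.1 CPM in LacZ and 40.5 and 51.5 CPM in sh60, a log2 fold change of -0.34 (SE 0.11, adjusted p = 0.0261). In both genes the sh60 libraries lay further apart than the LacZ libraries, with replicate 1 the lower. Neither passed without sh60 replicate 1, without LacZ replicate 1 or without LacZ replicate 3.

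Among membrane arm genes, NDUFB4 (chromosome 3, 120315128 to 120321258), whose promoter is shown above, measured 85.1 and 87.7 CPM in LacZ and 64.0 and 75.0 CPM in sh60 (log2 fold change -0.31, SE 0.096, adjusted p = 0.0201). NDUFA10 (chromosome 2, 240896789 to 240964819) measured 71.3 and 81.7 CPM in LacZ and 62.7 and 60.6 CPM in sh60 (-0.31, SE 0.096, adjusted p = 0.0202). NDUFA10 was the 1 gene of the 10 whose level was not higher in sh60 replicate 2 than in replicate 1. Both calls were lost without either LacZ library. NDUFA3, NDUFB10 and NDUFV1 lay just outside the threshold, with log2 fold changes of -0.34, -0.27 and -0.25 and adjusted p of 0.0522, 0.0566 and 0.0534. NDUFV1 binds the flavin and NADH, and measured 84.4 and 82.5 CPM in LacZ and 64.9 and 75.1 CPM in sh60.

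**Figure D4:**
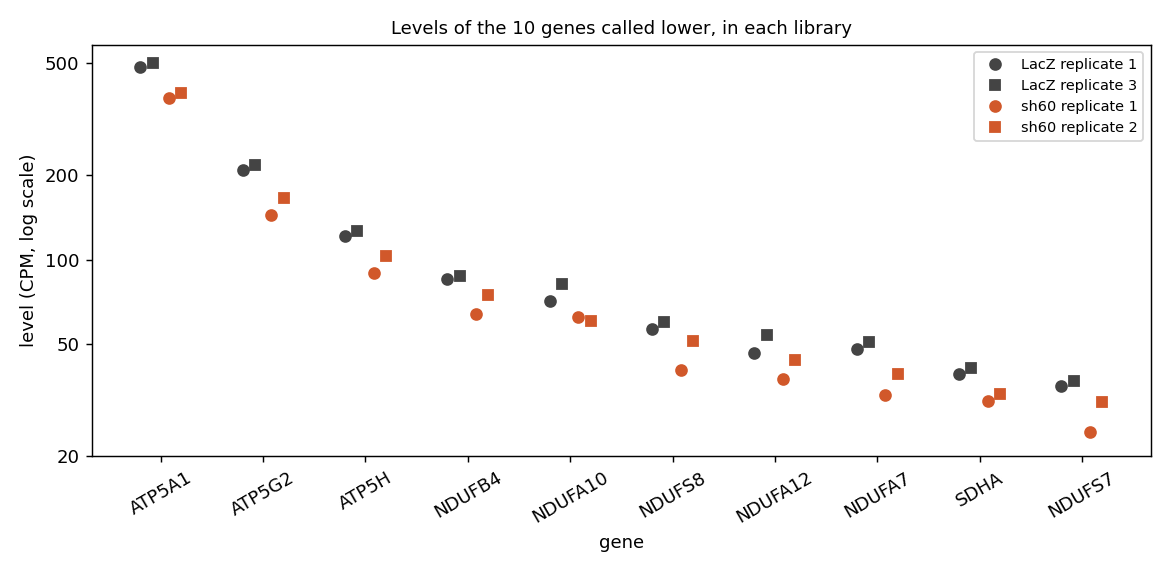
Level in CPM (y axis, log scale) of the 10 genes called lower (x axis) in LacZ replicates 1 and 3 (grey) and sh60 replicates 1 and 2 (orange). Both sh60 points lie below both LacZ points for each gene, from ATP5A1 at 376 to 499 CPM to NDUFS7 at 24.4 to 37.1 CPM.

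Complex II, succinate dehydrogenase, also works in the tricarboxylic acid cycle and has only nuclear-encoded subunits. SDHA, the flavoprotein that oxidises succinate (chromosome 5, 218338 to 257197), measured 39.1 and 41.1 CPM in LacZ and 31.5 and 33.2 CPM in sh60. Its replicates lay close together and the groups did not overlap (log2 fold change -0.31, SE 0.099, adjusted p = 0.0261), but the call was lost without either LacZ library. SDHA has near-identical copies, of which SDHAP1, SDHAP2 and SDHAP3 lay between 2.30 and 3.59 CPM and were not called, so its level is uncertain. No other subunit of the complex passed. SDHB, the iron-sulphur subunit, measured 50.9 and 50.7 CPM in LacZ and 48.6 and 46.2 CPM in sh60. SDHC, a membrane anchor, measured 70.2 and 72.1 CPM in LacZ and 65.5 and 75.6 CPM in sh60. SDHD, the other anchor, measured 52.9 and 58.6 CPM in LacZ and 54.3 and 54.6 CPM in sh60. The groups overlapped for both anchors.

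Complex III hands electrons from ubiquinol to cytochrome c. Of its 8 tested genes edgeR called 0 lower and 0 higher (2 and 0 at an unadjusted p under 0.05; 0 and 0 by DESeq2 and by limma-voom), with a median log2 fold change of -0.06. Over all genes tested 13% were lower, and with 8 genes the difference from that share was not tested. UQCRC1, a core subunit, measured 201 and 196 CPM in LacZ and 201 and 235 CPM in sh60. UQCRH, the hinge protein, was the most abundant of them at 403 and 443 CPM in LacZ and 386 and 458 CPM in sh60. The sh60 libraries lay on either side of both LacZ libraries for UQCRH. UQCRHL, an intronless gene that encodes a near-identical protein, was counted at 22.0 to 28.5 CPM. Reads that map equally to both genes were left out with the counting tool's defaults, so both levels are uncertain.

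Complex IV, cytochrome c oxidase, reduces oxygen. Its 11 tested genes, with NDUFA4 counted here as a subunit of complex IV, gave 0 lower and 0 higher calls by edgeR (1 and 0 at an unadjusted p under 0.05; 0 and 0 by DESeq2 and by limma-voom). Over all genes tested 13% were lower, and with 11 genes the difference from that share was not tested. The median log2 fold change of the 11 was -0.05. COX4I1, the common form of subunit 4, measured 258 and 251 CPM in LacZ and 258 and 277 CPM in sh60. COX8A measured 111 and 112 CPM in LacZ and 88.6 and 105 CPM in sh60, and its groups did not overlap. COX7A2L, which is related to COX7A2 and takes part in joining complexes III and IV, measured 86.4 and 87.6 CPM in LacZ and 97.0 and 104 CPM in sh60. It did not pass (log2 fold change 0.21, SE 0.087, adjusted p = 0.0825).

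The isoforms of complex IV that are typical of muscle, lung, testis or low oxygen were close to silent. The 7 such genes, COX4I2, COX6A2, COX6B2, COX7A1, COX7B2, COX8C and NDUFA4L2, held 34 counts in all 4 libraries together, and 2 of them, COX6A2 and COX7B2, held 0. The highest single value was 7 counts, for COX6B2 in LacZ replicate 3. For a gene at 0, up to 3 counts in a library could have been missed by chance, which covers counting error only. The common forms COX4I1, COX6A1, COX6B1, COX7A2, COX7B, COX8A and NDUFA4 lay between 58.7 and 277 CPM. The muscle markers MYH6, ACTN2 and TNNT2 were detected, at most at 22.1 CPM for MYH6, while MYH7 and CKM lay under 1 CPM.

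Complex V had 15 listed genes, of which 14 were tested, with 3 lower and 0 higher (3 and 1 at an unadjusted p under 0.05; 3 and 0 by DESeq2 and by limma-voom). The 3 are 21.4% of the genes tested in this complex, against 13% of all genes tested, a share that rests on 3 genes. The median log2 fold change was -0.11. ATP5A1, now named ATP5F1A, encodes the alpha subunit of the catalytic F1 head (chromosome 18, 43664110 to 43684199). It measured 483 and 499 CPM in LacZ and 376 and 392 CPM in sh60, and the groups were well apart (log2 fold change -0.35, SE 0.077, adjusted p = 0.00203). Its adjusted p missed the threshold when LacZ replicate 1 (0.0509) or LacZ replicate 3 (0.115) was left out, and its lowest value over the alternatives was 5.21e-05. ATP5B, the catalytic beta subunit that pairs with it, measured 1040 and 1070 CPM in LacZ and 941 and 1037 CPM in sh60 and was not called. ATP5H, of the peripheral stalk (chromosome 17, 73034955 to 73043074), measured 121 and 126 CPM in LacZ and 89.7 and 103 CPM in sh60 (-0.36, SE 0.091, adjusted p = 0.00649). Its call was also lost without either LacZ library.

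The genes ATP5G1, ATP5G2 and ATP5G3 encode the same mature c subunit of the membrane rotor, and they differ in their promoters and targeting peptides. ATP5G2 (chromosome 12, 54058944 to 54070512) measured 209 and 217 CPM in LacZ and 145 and 165 CPM in sh60. The sh60 libraries lay well below, at a mean of 154.7 ± 14.5 against 213 ± 6.08 CPM (SD, n = 2 each; log2 fold change -0.46, SE 0.086, edgeR adjusted p = 0.000548). ATP5G3 measured 281 and 292 CPM in LacZ and 256 and 271 CPM in sh60 and did not pass. ATP5G1 measured 33.6 and 37.5 CPM in LacZ and 27.3 and 38.8 CPM in sh60, so its groups overlapped. ATP5G2 made up 39.9% and 39.7% of the summed CPM of the 3 genes in LacZ and 33.7% and 34.7% in sh60. The sum was 523 and 547 CPM in LacZ and 428 and 475 CPM in sh60.

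ATP5L, a membrane subunit at the interface between synthase dimers, was the complex V gene with the highest fold change. It measured 149 and 144 CPM in LacZ and 161 and 179 CPM in sh60, and just missed the threshold (log2 fold change 0.22, SE 0.085, adjusted p = 0.0653). With library totals only ATP5L passed (0.24, adjusted p = 0.0378), and it also passed with the length trend removed. It passed under no other alternative that kept every library. Its log2 fold change over the 14 alternatives ran from 0.14 to 0.29. ATP5E, the epsilon subunit, was not tested, with 1 and 3 counts in the LacZ libraries and 7 and 10 in the sh60 libraries. Of its exon length, 66.3% is shared on the same strand with the readthrough SLMO2-ATP5E, and reads that overlap several genes were left out, so its level was not measured here. NDUFC2 and ATP5J2 share 31.7% and 35.4% with readthrough genes in the same way, and their levels are underestimates.

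Summed over subunits and isoforms, complex V held 3252 and 3375 CPM in LacZ and 2896 and 3154 CPM in sh60, and complex I held 2440 and 2520 CPM in LacZ and 2189 and 2450 CPM in sh60. Complex IV held 1279 and 1354 CPM in LacZ against 1199 and 1361 CPM in sh60, complex III 1090 and 1162 against 1041 and 1182 CPM, and complex II 213 and 222 against 199.9 and 209.6 CPM. The groups did not overlap for complexes II and V and overlapped for I, III and IV. With 2 libraries a group no exact test of these sums can reach 0.05.

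Per length, levels within a complex were far from equal. In CPM per kb of exon and as LacZ means, complex I genes ran from 9.66 (NDUFA5) to 330 (NDUFS5) with a median of 62.7. Complex II ran from 14.4 (SDHA) to 44.4 (SDHB), and complex III from 20.6 (UQCRQ) to 549 (UQCRH). Complex IV ran from 59.0 (COX6C) to 309 (COX4I1) with a median of 160.9, and complex V from 55.0 (ATP5G1) to 573 (ATP5B) with a median of 145. Just below the top of their complexes, NDUFA13 measured 95.4 and 98.5 CPM in LacZ and 81.1 and 101 CPM in sh60, and COX7B measured 116 and 134 CPM in LacZ and 109 and 123 CPM in sh60. ATP5O, of the stalk, measured 245 and 257 CPM in LacZ and 269 and 268 CPM in sh60, and NDUFS5 measured 185 and 192 CPM in LacZ and 174 and 192 CPM in sh60. Of these 4, only ATP5O had groups that did not overlap, with sh60 the higher, and none was called. Exon length here joins all annotated transcripts, so a gene with a long alternative end, such as NDUFA5 with 6506 bp, appears lower than its main transcript is. The order within complexes was not tested.

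Of the 12 genes that are not subunits, 6 were tested and none was called (0 lower and 0 higher by edgeR, DESeq2 and limma-voom; COX7A2L alone had an unadjusted p under 0.05, upwards). Over all genes tested 28.8% were called, and with 6 genes the difference from that share was not tested. ATP5SL lay between 53.1 and 58.9 CPM and ATP5S between 4.99 and 5.73 CPM. The antisense RNAs NDUFA6-AS1 and NDUFB2-AS1 lay under 1 CPM in every library, where an SE of 0.43 on the log2 scale leaves their difference undetermined at this depth. NDUFV2-AS1, both readthrough genes and the pseudogenes UQCRBP1, ATP5EP2 and ATP5L2 did not pass the filter.

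**Figure D5:**
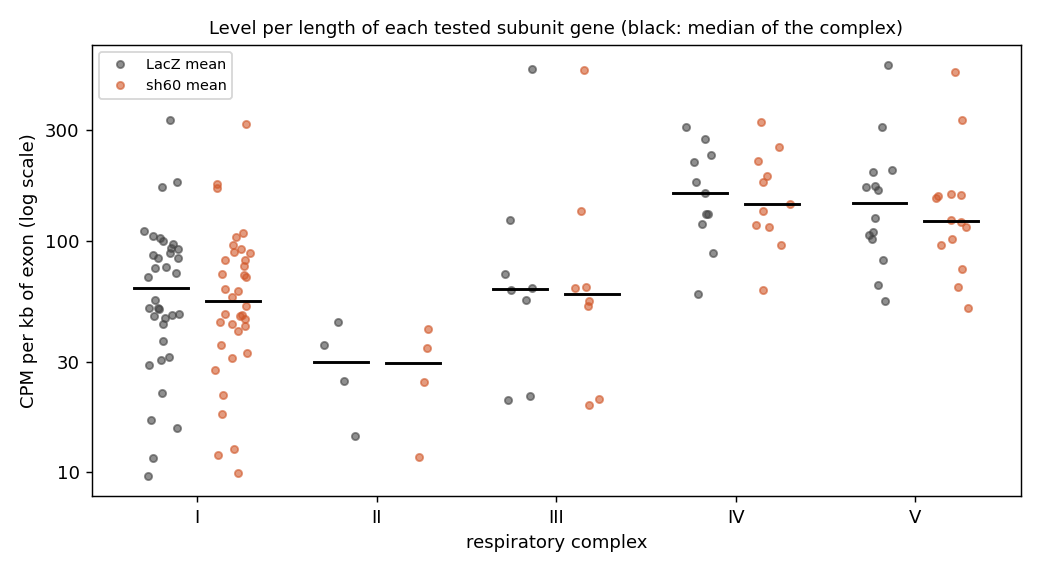
Level of each tested subunit gene in CPM per kb of exon (y axis, log scale) as the LacZ mean (grey) and the sh60 mean (orange) in complexes I to V (x axis), with a black line at each median. The LacZ medians are 62.7 in complex I, 160.9 in complex IV and 145 in complex V.

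Among 6 further genes of the chain that the symbol rule misses, edgeR called 0 lower and 0 higher (0 and 0 at an unadjusted p under 0.05; 0 and 0 by DESeq2 and by limma-voom). These were NDUFAB1, CYC1, cytochrome c (CYCS), USMG5, C14orf2 and the ATP synthase inhibitor ATPIF1. Over all genes tested 28.8% were called, and with 6 genes the difference from that share was not tested. CYCS, the mobile carrier between complexes III and IV, measured 348 and 369 CPM in LacZ and 360 and 335 CPM in sh60. The smallest p values belonged to NDUFAB1, the acyl carrier protein of complex I, at 145 and 157 CPM in LacZ and 131 and 141 CPM in sh60, and USMG5, a small synthase subunit, at means of 41.4 ± 3.29 CPM in LacZ and 45.9 ± 1.18 CPM in sh60 (SD, n = 2 each). NDUFAB1 lay lower and USMG5 higher in both sh60 libraries, without passing.

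A list of 49 assembly factors, most of which build the complexes without remaining in them, had 3 lower and 3 higher. The median log2 fold change was -0.06. The list includes LRPPRC and TACO1, which act on mitochondrial messenger RNA or its translation, and neither was called. The 12.2% called, 6.12% lower, lie under the 28.8% and 13% of all genes tested. NDUFAF3, a complex I factor, rose from 14.6 and 17.3 CPM in LacZ to 24.8 and 28.7 CPM in sh60 (log2 fold change 0.75, SE 0.121, adjusted p = 0.000138). SDHAF4, a complex II factor, rose from 3.42 and 4.03 CPM to 6.84 and 5.92 CPM (0.78, SE 0.169, adjusted p = 0.00189). ECSIT, a complex I factor, fell from 33.5 and 34.9 CPM to 23.1 and 25.3 CPM (-0.50, SE 0.104, adjusted p = 0.00148). NDUFAF4 fell from 47.8 and 51.9 CPM to 41.1 and 36.0 CPM (-0.37). COX20 and COA7, named after their values were seen, were the remaining gene that rose and the remaining gene that fell. Fewer factors were lower with either LacZ library left out, as was so over all genes tested.

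Among 18 regulators of these genes and of mitochondrial transcription, 4 were lower (22.2%, against 13% of all genes tested) and 0 higher by edgeR (6 and 1 at an unadjusted p under 0.05; 3 and 0 by DESeq2, 4 and 0 by limma-voom). PPARGC1B, a coactivator of mitochondrial gene programmes, fell from 13.9 and 15.2 CPM to 8.96 and 8.35 CPM (log2 fold change -0.75, SE 0.128, adjusted p = 0.000258). C10orf2, the mitochondrial DNA helicase Twinkle, fell from 51.1 and 56.0 CPM to 37.6 and 42.6 CPM (-0.41). The list also includes POLG and POLG2, of the mitochondrial DNA polymerase, which were not called. These genes and C10orf2 belong to replication of mitochondrial DNA and not to its transcription, so the share lower is not of regulators alone. GABPA, the ETS factor whose core motif was searched above, fell from 92.3 and 88.1 CPM to 77.4 and 63.0 CPM (-0.36). TFAM, which packages and transcribes mitochondrial DNA, fell from 142 and 144 CPM to 130.2 and 109.7 CPM (-0.25, adjusted p = 0.0453). TFAM was lost under 5 of 14 alternatives, and without LacZ replicate 3 only PPARGC1B of the 4 passed. NRF1, whose motif was searched above, measured 25.8 and 24.9 CPM in LacZ and 22.0 and 21.7 CPM in sh60 and did not pass.

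The tricarboxylic acid cycle supplies the chain with NADH and succinate, and pyruvate dehydrogenase feeds it. A list of 18 genes for both had 8 lower and 1 higher (44.4% lower, against 13% of all genes tested), with a median log2 fold change of -0.20. The list includes PDHA1, PDHB, DLAT and PDHX, which belong to pyruvate dehydrogenase and not to the cycle, and none of these 4 was called. SUCLG2, a subunit of succinyl-CoA ligase, fell from 39.9 and 38.6 CPM to 22.6 and 18.8 CPM (-0.93, SE 0.111, adjusted p = 6.28e-06). IDH2, the NADP-dependent mitochondrial isocitrate dehydrogenase, fell from 73.8 and 72.3 CPM to 39.1 and 50.4 CPM (-0.70). DLD, shared by the pyruvate and oxoglutarate dehydrogenase complexes, fell from 98.3 and 95.3 CPM to 71.2 and 60.5 CPM (-0.56), and OGDH from 127.1 and 130.2 CPM to 90.1 and 96.3 CPM (-0.46). IDH3A, of the NAD-dependent isocitrate dehydrogenase, was the 1 that rose, from 29.6 and 30.9 CPM to 46.3 and 41.1 CPM (0.53). These 5 passed under all 14 alternatives. Fewer genes of the list were lower with either LacZ library left out, as was so over all genes tested. Whether this list differs from the respiratory chain genes was not tested.

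Mitochondrial ribosomes translate the subunits encoded in mitochondrial DNA. Of 78 tested genes with MRPL or MRPS symbols, 5 were lower (6.41%, against 13% of all genes tested) and 1 higher, with a median of -0.02. The 78 include 2 pseudogenes, MRPS31P5 and MRPL45P2, which were not called. MRPS34 fell from 121.7 and 119.4 CPM to 78.8 and 84.6 CPM (log2 fold change -0.56) and MRPS2 from 90.7 and 96.2 CPM to 62.8 and 69.0 CPM (-0.50). MRPL17 rose from 53.5 and 51.9 CPM to 68.7 and 74.1 CPM (0.44), a call lost without LacZ replicate 3. MRPL37 fell from 182 and 177 CPM to 137 and 152 CPM (-0.31). Fewer MRPL or MRPS genes were lower with either LacZ library left out, and more without sh60 replicate 2. The share of all genes tested moved the same way.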

How the data were processed

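The deposited values are counts, whole numbers per gene that the authors did not normalize, 1 table per library. Per the submitters' processing notes, the aligner was STAR 2.7.6a and the genome build hg19. Per the file headers, featureCounts (Subread 2.0.0) summed exon reads by gene, with strand setting 2. The headers show no option for reads that map or overlap several times, so with the tool's defaults these were left out.

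Groups and replicate numbers came from the titles. In R 4.3.3, edgeR 4.0.16 fitted the 4 libraries by quasi-likelihood (glmQLFit, then glmQLFTest) on group alone, after filterByExpr and TMM. P-values were adjusted by Benjamini-Hochberg over 16040 genes. SEs and 95% intervals are those of the log2 fold change. Between replicates, chi-square per degree of freedom was 6.28 (LacZ) and 17.1 (sh60) over genes with 20 counts or more in both, so no library repeats another. The script was tested on simulated data.

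Members and lists were chosen with earlier results of these data known. Named genes were BEND3, complex II, isoform pairs, the c subunit genes, the most abundant members and, per complex or list, up to 4 called genes with the smallest p. Any further gene was picked with its values in view. Alternatives used DESeq2 1.42.0, limma-voom 3.58.1, other scalings and filters, edgeR's robust option, loess removal of length or of GC and length trends (GC from GENCODE transcripts, matched for 97.5% of tested genes) and each library left out. Promoters are RefSeq windows on GRCh38.p14, matched by symbol. Genes of mitochondrial DNA were not analysed here. A gene is counted in the totals but not reported here singly, nor drawn in the plot of fold changes.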

Additional observations from a re-analysis of the deposited data

How the results depend on the processing

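No paired analysis was possible because the groups share only replicate number 1. With TMM scaling 10 members were lower and 0 higher. Members called higher were 2 with library totals only, 2 with the length trend removed and 2 with GC and length trends removed. That is 2.53% of members, against 17.6%, 15.5% and 18.7% of all genes in these fits. Members called lower were 22 with GC and length trends removed, where 23.0% of all genes were lower. Leaving out 1 library at a time gave 1 to 29 lower and 0 to 11 higher. Those fits leave 1 library in a group, which is assumed to vary like the other group. Under other scalings, tools and filters 9 to 13 members were lower. The median over members ran from -0.15 to 0.01 and turned positive only without sh60 replicate 1. BEND3 ran from -0.56 to -0.36 with a library left out and did not pass without LacZ replicate 3. Of the 69 members not called, between 0 and 16 changed sign in a given alternative, most without sh60 replicate 1. The lists were rerun under the same alternatives by a choice made after seeing the data. With GC and length trends removed, the counts lower were 1 of the 6 other chain genes, 9 of 49 assembly factors and 9 of 18 regulators. In the same fit, 13 of 18 genes of the list for the cycle and pyruvate dehydrogenase and 13 of 78 MRPL or MRPS genes were lower. There, 2 regulators and 5 MRPL or MRPS genes were higher. Over all genes, 23.0% were lower and 18.7% higher in that fit. Assembly factors lower were 5 of 49 with upper-quartile scaling and 6 with the length trend removed. Over all genes, 16.1% and 17.4% were lower in these fits. With library totals only, 2 of 78 MRPL or MRPS genes were higher, against 17.6% of all genes. With 1 library left out, 0 to 2 other chain genes, 1 to 5 assembly factors, 1 to 6 regulators, 4 to 10 cycle list genes and 2 to 11 MRPL or MRPS genes were lower, and 0 to 2 regulators and 0 to 5 MRPL or MRPS genes were higher. The cause of these differences was not tested. With 2 libraries per group, precision is limited.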
